A study of Mus musculus with 16 samples.

Results

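The neutrophil chemokine axis was followed here through 8 genes in the whole dorsal skin of mice irradiated with UVB. The genes encode the chemokine receptor *Cxcr2*, its ligands *Cxcl1*, *Cxcl2*, *Cxcl3* and *Cxcl5*, the growth factor *Csf3* (G-CSF) with its receptor *Csf3r*, and *Trem1*, a receptor that amplifies myeloid inflammation. They were chosen by symbol from the GENCODE annotation of GRCm39, are 8 of the 55359 genes counted, and were not picked by a threshold on any value. RNA was sequenced from 16 wild-type (WT) mice, and each sex gave 4 irradiated mice and 4 unirradiated controls. All were C57Bl/6 mice of 8 weeks (C57Bl/6N, by the study's text), an age at which dorsal hair follicles rest in telogen. Irradiated mice received UVB 3 times, every other day, and skin was taken 6 h after the last exposure, on day 5. Each library came from the whole skin of 1 mouse, without sorting, so that a change in the number of cells of a type and a change in RNA per cell cannot be told apart.

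Neutrophils leave the blood along gradients of chemokines that carry the ELR motif, and Cxcr2 is the receptor through which mouse neutrophils sense most of them. Keratinocytes, fibroblasts and macrophages can secrete these ligands after injury, under the control of interleukin-1, interleukin-17 and NF-kB signalling, and their mRNAs are short-lived. Csf3 drives the production of neutrophils in bone marrow through Csf3r, which monocytes also carry. Cxcr2 has also been described on keratinocytes.

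Of the 8 genes, 6 have a promoter window in the RefSeq table, which covers 250 bases before and 50 after each annotated start (build GRCm38.p6), and *Cxcl5* and *Csf3* have none. Promoter stretches of *Cxcl1*, *Cxcl2* and *Cxcl3* are shown because these ligand genes share letters near the start that the stretch of the receptor gene *Cxcr2*, printed beside them, does not hold. Each stretch starts 110 bases before the RefSeq start and ends at that start or where the first GENCODE exon begins, is written 5′ to 3′ on the plus strand, and was placed on GRCm39 by its only exact match on the chromosome. Capitals mark GGGAATTTCCC, the longest run of letters common to the 3 ligand stretches, and the TATA box letters ATAAAAG.
Cxcl1, chr5:91038994-91039093: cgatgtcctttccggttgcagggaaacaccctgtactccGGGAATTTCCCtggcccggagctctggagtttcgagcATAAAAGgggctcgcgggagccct
Cxcl2, chr5:91051648-91051729: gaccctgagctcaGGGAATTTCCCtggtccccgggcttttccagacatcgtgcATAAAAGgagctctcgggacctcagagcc
Cxcl3, chr5:90933850-90933959: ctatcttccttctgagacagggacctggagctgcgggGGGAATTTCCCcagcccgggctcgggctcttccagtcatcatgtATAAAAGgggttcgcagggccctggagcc
Cxcr2, chr1:74193043-74193149: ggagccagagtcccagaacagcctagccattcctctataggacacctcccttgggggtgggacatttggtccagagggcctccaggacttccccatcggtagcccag

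The common run of 11 letters, which has the form of a binding site for NF-kB, began 71 bases before the RefSeq start of *Cxcl1*, 97 before that of *Cxcl2* and 73 before that of *Cxcl3*. The first GENCODE exon begins 10 bases before the RefSeq start in *Cxcl1* and 28 bases before it in *Cxcl2*, so that these distances depend on the annotation. Of all 32851 windows of 300 bases, 14 (0.0426%) held it on either strand, these 3 included. As the run was read from these genes, the share is a description only. The windows of *Cxcr2*, *Csf3r* and *Trem1* did not hold these exact letters, which leaves looser forms of such a site uncounted. The TATA box letters ATAAAAG stood closer to the start of the same 3 ligand genes, and 5.42% of all windows held them on either strand. The AP-1 motif TGANTCA was in none of the 6 windows, against 7.81% of all windows. A match of letters is a description of the sequence and was not tested as a binding site.

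The libraries held 16495776 to 33404831 reads on genes, so that 1 count was worth 0.0311 to 0.0638 CPM (reads scaled to the size of the library, by TMM). Counts of up to 3 in a mouse, which is 0.0934 to 0.191 CPM, were treated as a floor under which no level was read. Changes were tested with edgeR's quasi-likelihood test over all genes that passed a filter on low counts, with Benjamini-Hochberg adjustment. A gene is said to rise or fall where its adjusted p was under 0.1, and is called upregulated or downregulated where its log2 fold change was also past 1. Only 3 of the 8 genes, *Cxcr2*, *Cxcl1* and *Csf3r*, passed the filter, in each of the 5 comparisons, and the other 5 were not tested there. Unirradiated males 1 and 2 stood apart from the other 14 mice in NF-kB feedback genes, with *Nfkbia*, an NF-kB inhibitor, at 251 and 260 CPM against 72 to 144 CPM elsewhere. The male responses of the genes and the counts over lists are therefore also given without them.

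*Cxcr2* was the gene of the axis that changed most among the 3 tested, rising 12.4-fold in males and 6.94-fold in females, from a very low level without UVB. *Cxcl1* rose 2.25-fold in males and 2.85-fold in females. *Csf3r* rose 1.63-fold in males, and no change was detected in females. With both thresholds, 2 of the 3 tested genes (*Cxcr2* and *Cxcl1*) were upregulated in each sex and none was downregulated, where 4.08% of all tested genes were upregulated and 3.31% downregulated in males, and 1.63% and 1.08% in females. Both genes had under 10 counts in some controls of each sex, and passed the filter there with the counts of irradiated mice. The 2 of 3 is therefore a description only.

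Among the ligands, *Cxcl1* (ENSMUSG00000029380.12, chromosome 5, 91039094 to 91040974) encodes KC, a main attractant of mouse neutrophils. It was counted 17, 11, 15 and 4 times in unirradiated males 1 to 4 and 49, 18, 14 and 28 times in irradiated males. In CPM these were 0.792, 0.506, 0.650 and 0.229 against 1.53, 1.15, 0.739 and 1.46 CPM. The groups overlapped in males, since the third irradiated male lay below the first control.

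In females *Cxcl1* was counted 21, 11, 9 and 9 times without UVB and 24, 26, 49 and 35 times after it, or 0.909, 0.436, 0.295 and 0.455 against 1.24, 0.937, 2.10 and 1.63 CPM. All 4 irradiated females were above all 4 controls, though the lowest irradiated and the highest control value were close. Such a separation was seen in 11.1% of all genes tested in females.

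The mean of *Cxcl1* was 0.544 ± 0.240 CPM (SD, n = 4) in unirradiated males and 1.22 ± 0.359 in irradiated males. Its log2 fold change was 1.17 (SE 0.340, edgeR adjusted p = 0.0134). In females the mean went from 0.524 ± 0.267 to 1.48 ± 0.504 CPM, a log2 fold change of 1.51 (SE 0.369, edgeR adjusted p = 0.0205). The male value is near the fold threshold. It was 0.94 without unirradiated male 4, the mouse with the fewest *Cxcl1* counts, and 0.91 with the fold change shrunk by apeglm, so that *Cxcl1* was not called upregulated in males by either. Without unirradiated males 1 and 2 it was 1.44 (edgeR adjusted p = 0.0293).

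**Figure D1:**
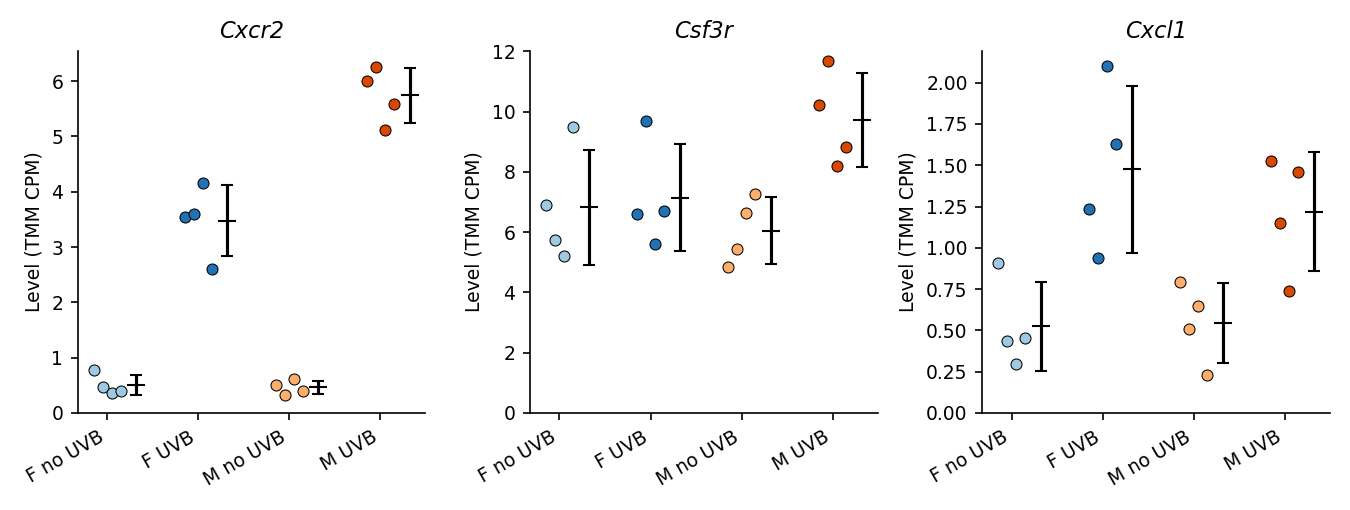
Levels of the 3 tested genes in each of the 16 mice, in CPM scaled by TMM on linear axes from 0, for females (F) and males (M) without and after UVB; the bars beside the points give the mean ± SD of 4 mice. *Cxcr2* separated irradiated from control mice in both sexes and irradiated males (5.12 to 6.25 CPM) from irradiated females (2.60 to 4.16 CPM), *Csf3r* separated irradiated from control mice in males, and *Cxcl1* in females.

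*Cxcl2* (chromosome 5, 91051730 to 91053797), the neighbouring gene for MIP-2, was counted 2, 1, 4 and 0 times in unirradiated males and 5, 18, 33 and 4 times in irradiated males. Most of the irradiated counts came from males 2 and 3, and the lowest irradiated mouse had the same count as the highest control. In females the counts were 2, 2, 1 and 5 without UVB and 3, 12, 3 and 6 after it, with overlapping groups.

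Summed over the mice and divided by depth, *Cxcl2* was 8.35 times higher after UVB in males (60 against 7 counts, exact 95% interval 3.81 to 21.7) and 2.57 times higher in females (24 against 10 counts, 1.19 to 6.03), where the intervals cover counting error only. With every gene of at least 1 count fitted, edgeR's adjusted p was 0.0568 for males and 0.308 for females. The male call was lost when irradiated male 2 was left out (edgeR adjusted p = 0.111), and when unirradiated male 1, 2 or 4 was (0.146, 0.164 and 0.116). It was kept when any 1 of the other 4 males was left out (up to 0.0706) and without unirradiated males 1 and 2 together (log2 fold change 2.97, edgeR adjusted p = 0.000242). With these 2 mice left out *Cxcl2* also passed the filter on low counts, and in that filtered fit it was not called (log2 fold change 2.91, edgeR adjusted p = 0.159). Without irradiated male 3, which had the highest count, the log2 fold change went from 3.19 to 2.43 (edgeR adjusted p = 0.0272). The male call of *Cxcl2* thus depended on the mice and the filter, while the direction did not.

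The remaining ligands stayed at a few counts. *Cxcl3* (chromosome 5, 90933962 to 90937459) had 0, 3, 1 and 3 counts in unirradiated males, 0, 2, 5 and 0 in irradiated males, 7, 3, 2 and 1 in unirradiated females and 3, 1, 0 and 0 in irradiated females. The depth-corrected ratio was 0.974 in males (exact 95% interval 0.292 to 3.26) and 0.330 in females (0.0784 to 1.07), and both intervals include no change. *Cxcl5* (chromosome 5, 90907186 to 90909483), a ligand made largely by epithelia, had 10 counts in all 16 mice and none in 11 of them. Its highest values were 4 counts in unirradiated male 3 and 3 counts in irradiated male 2, and a change was not detectable at this depth.

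**Figure D2:**
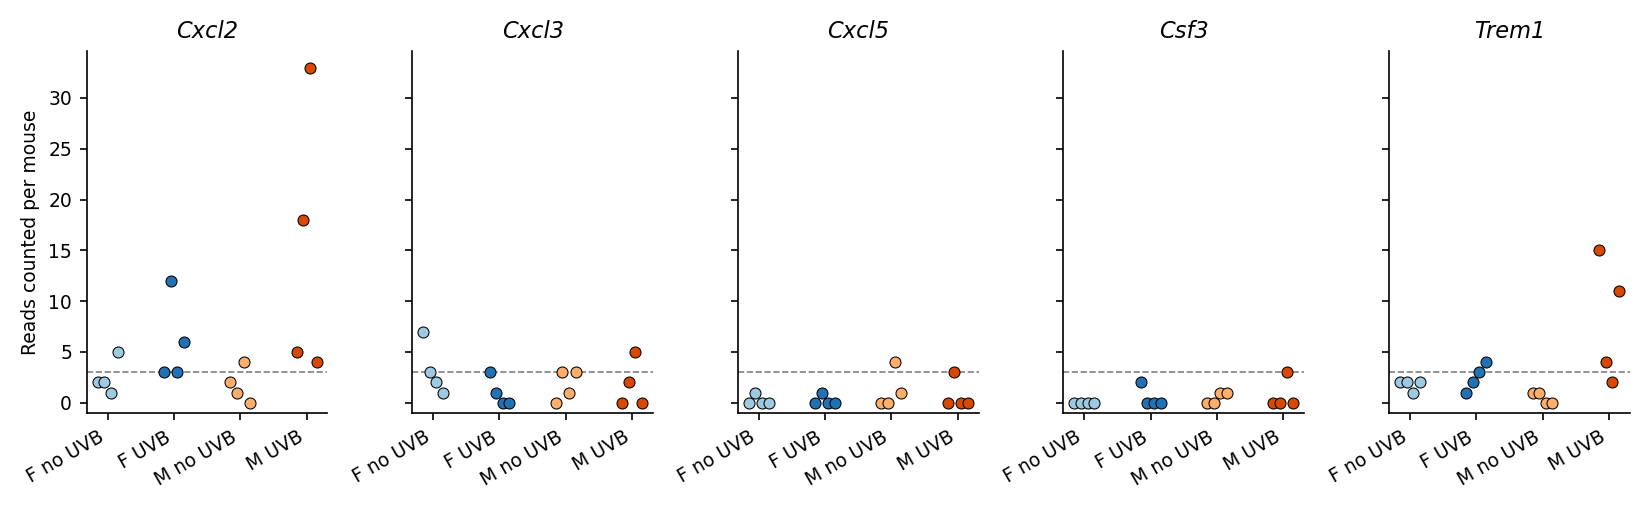
Reads counted per mouse for the 5 genes that did not pass the filter on low counts, by sex (F, M) and UVB; each point is 1 of 4 mice and the dashed line is the floor of 3 counts. *Cxcl2* reached 33 counts and *Trem1* 15 in irradiated males, and nearly all points of *Cxcl3*, *Cxcl5* and *Csf3* lie at or under the floor.

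The receptor *Cxcr2* (ENSMUSG00000026180.9, chromosome 1, 74193150 to 74200405) was counted 11, 7, 14 and 7 times in unirradiated males and 193, 98, 97 and 107 times in irradiated males. In CPM these were 0.513, 0.322, 0.607 and 0.401 against 6.01, 6.25, 5.12 and 5.58. The irradiated males lay close together and far above every control. Among all genes tested in males, 22.9% had every irradiated mouse above every control.

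In females the counts of *Cxcr2* were 18, 12, 11 and 8 without UVB and 69, 100, 97 and 56 after it, or 0.779, 0.476, 0.360 and 0.404 against 3.55, 3.61, 4.16 and 2.60 CPM. The groups did not overlap, and every irradiated female was below every irradiated male. Controls of both sexes had similar low values.

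The log2 fold change of *Cxcr2* was 3.63 (SE 0.195, 95% interval 3.20 to 4.06, edgeR adjusted p = 4.74e-07) in males and 2.80 (SE 0.260, 2.22 to 3.37, edgeR adjusted p = 0.000187) in females. With 1 mouse left out at a time it ranged from 3.50 to 3.82 in males and from 2.64 to 3.07 in females. It was 3.49 in males without unirradiated males 1 and 2.

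*Csf3r* (ENSMUSG00000028859.15, chromosome 4, 125918262 to 125938236), the G-CSF receptor, was counted 104, 118, 153 and 127 times in unirradiated males and 328, 183, 155 and 169 times in irradiated males. These were 4.85, 5.43, 6.63 and 7.28 against 10.2, 11.7, 8.18 and 8.81 CPM, and the groups did not overlap. In females the values were 6.89, 5.75, 5.21 and 9.50 CPM without UVB and 6.59, 9.70, 5.62 and 6.70 CPM after it. The female groups covered nearly the same range, each with 1 mouse above the rest.

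The log2 fold change of *Csf3r* was 0.71 in males (SE 0.152, edgeR adjusted p = 0.00238), short of the fold threshold. Of all genes tested in males, 29.0% rose at this adjusted p, so that a rise of this kind was common. Without unirradiated males 1 and 2 it was 0.51 (edgeR adjusted p = 0.0265). In females it was 0.09 (SE 0.220, edgeR adjusted p = 0.827), and the 95% interval from -0.40 to 0.57 (log2) leaves room for a moderate change in either direction.

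The ligand of this receptor, *Csf3* (chromosome 11, 98592089 to 98594458), was almost absent from the libraries. It had 0 counts in all 4 unirradiated females and 2, 0, 0 and 0 in irradiated females. In males it had 0, 0, 1 and 1 counts without UVB and 0, 0, 3 and 0 after it. Every mouse was at or under the floor, and no fold change is given.

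*Trem1* (chromosome 17, 48539784 to 48553952) was counted 1, 1, 0 and 0 times in unirradiated males and 15, 4, 2 and 11 times in irradiated males. Of the 4 irradiated males 3 were above the floor. Irradiated male 3 and every control were under it, so that no order was read between them. In females it was counted 2, 2, 1 and 2 times without UVB and 1, 2, 3 and 4 times after it, and the groups overlapped.

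Over the mice, *Trem1* was 15.6 times higher after UVB in males (32 against 2 counts, exact 95% interval 3.98 to 134) and 1.53 times in females (10 against 7 counts, 0.526 to 4.74), for counting error only. In the fit of every gene with at least 1 count, edgeR's adjusted p was 0.000535 in males and 0.705 in females. In that fit 3.55% of 31693 genes were upregulated in males and 1.06% of 32425 in females, and in males *Trem1* was one of 4 of the 8 genes called, with *Cxcr2*, *Cxcl1* and *Cxcl2*. The male call for *Trem1* held without any 1 of the 8 mice (edgeR adjusted p up to 0.00321). It also held without unirradiated males 1 and 2 (edgeR adjusted p = 0.00055), but these mice had the only *Trem1* counts of the male controls, so that no fold is given against the other two, which had none. *Trem1* differs in this from *Cxcl2*, the other sparse gene called in males.

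Set against each other per kilobase of exon, the receptors *Cxcr2* and *Csf3r* stood far apart without UVB and close together after it. In unirradiated mice *Csf3r* stood at 1.19 ± 0.217 CPM per kb in males and 1.34 ± 0.374 in females, while *Cxcr2* stood at 0.151 ± 0.0409 and 0.166 ± 0.0621. After UVB *Cxcr2* was at 1.89 ± 0.164 CPM per kb in males, beside 1.91 ± 0.305 for *Csf3r*, and these levels did not differ beyond their spread. In irradiated females *Cxcr2* reached 1.14 ± 0.212 and *Csf3r* 1.40 ± 0.347, which also overlapped. The ligand *Cxcl1* was at 0.648 ± 0.191 in irradiated males and 0.784 ± 0.268 in irradiated females. In irradiated males it was below both receptors in every mouse, and in irradiated females its range (0.498 to 1.12 CPM per kb) overlapped those of *Cxcr2* (0.855 to 1.37) and *Csf3r* (1.10 to 1.90). *Cxcl2* was at 0.394 ± 0.372 and 0.120 ± 0.0673 CPM per kb in the same groups, with a spread in males as large as its level. Exon length here merges all annotated transcripts, and for *Cxcl1* and *Cxcl2* it covers the whole gene (1881 and 2068 bases), introns included. This can lower both ligands against the receptors, so that their order holds for this length only. *Trem1*, *Cxcl3*, *Cxcl5* and *Csf3* were each at or under the floor in at least 12 of the 16 mice, and no order of their levels was read.

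The read ratio of *Cxcr2* to *Csf3r* within a mouse does not depend on the scaling between libraries. It was 0.106, 0.0593, 0.0915 and 0.0551 in unirradiated males and 0.588, 0.536, 0.626 and 0.633 in irradiated males. In females it was 0.113, 0.0828, 0.0692 and 0.0426 without UVB and 0.539, 0.372, 0.741 and 0.389 after it. Both sexes moved from a mean of 0.0779 (males) and 0.0769 (females) to a mean of 0.596 and 0.510. After UVB the females spread widely around the narrow range of the males.

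**Figure D3:**
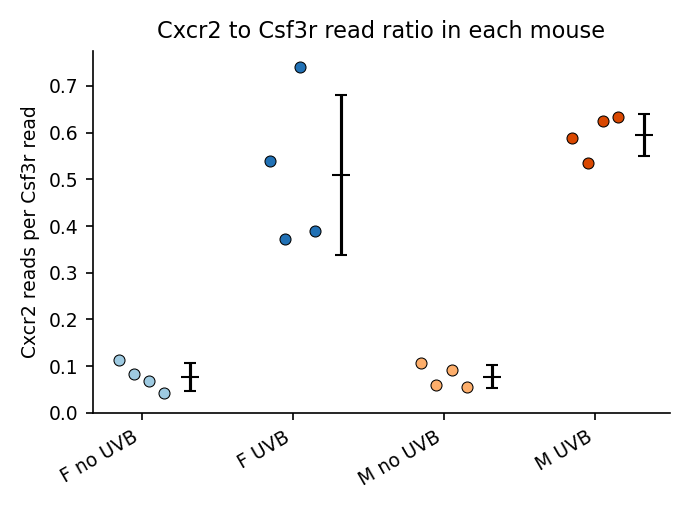
Reads of *Cxcr2* per read of *Csf3r* in each of the 16 mice, on a linear axis from 0, by sex (F, M) and UVB; points are mice and bars give the mean ± SD of 4 mice. Without UVB all 8 mice lie between 0.0426 and 0.113, and after UVB all 8 lie between 0.372 and 0.741.

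The response of the sexes was compared in a fit of all 16 mice. For *Cxcr2* the male response exceeded the female response by 0.82 on the log2 scale (95% interval 0.10 to 1.55), and this missed the threshold (edgeR adjusted p = 0.184). For *Csf3r* the difference was 0.60 (0.01 to 1.20, edgeR adjusted p = 0.235), and for *Cxcl1* it was -0.36 (-1.50 to 0.78, edgeR adjusted p = 0.749). Thus none of the 3 tested genes was called for the interaction by edgeR, nor *Cxcr2* and *Csf3r* by DESeq2, which gave no adjusted p for *Cxcl1*. By edgeR, 2.75% of all tested genes were called with a larger and 4.25% with a smaller log2 change in males. At an unadjusted p under 0.05 edgeR had 2 of the 3, *Cxcr2* and *Csf3r*, and 20.8% of all tested genes. For *Trem1* in the fit of every gene with at least 1 count, edgeR's adjusted p for the interaction was 0.249.

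Without UVB the sexes did not differ detectably in any of the 3 tested genes, by edgeR or by DESeq2. None had an unadjusted p under 0.05, and 7.21% of all tested genes were higher and 4.58% lower in males. The log2 difference, males minus females, was -0.10 for *Cxcr2* (95% interval -0.72 to 0.51), 0.11 for *Cxcl1* (-0.77 to 0.99) and -0.17 for *Csf3r* (-0.60 to 0.26).

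After UVB, *Cxcr2* was 1.65-fold higher in males than in females, with 5.74 ± 0.498 against 3.48 ± 0.645 CPM. The log2 difference was 0.72 (SE 0.181, 95% interval 0.34 to 1.10, edgeR adjusted p = 0.0134), and all 4 males were above all 4 females. *Cxcr2* was thus 1 of the 3 tested genes called higher in males, as were 12.8% of all tested genes, and 11.5% of all tested genes had every irradiated male above every irradiated female. With 1 mouse left out at a time the difference stayed between 0.60 and 0.82 and stayed called. *Csf3r* differed by 0.44 (0.02 to 0.85, edgeR adjusted p = 0.140) and *Cxcl1* by -0.25 (-0.97 to 0.47, edgeR adjusted p = 0.652), and neither was called.

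**Figure D4:**
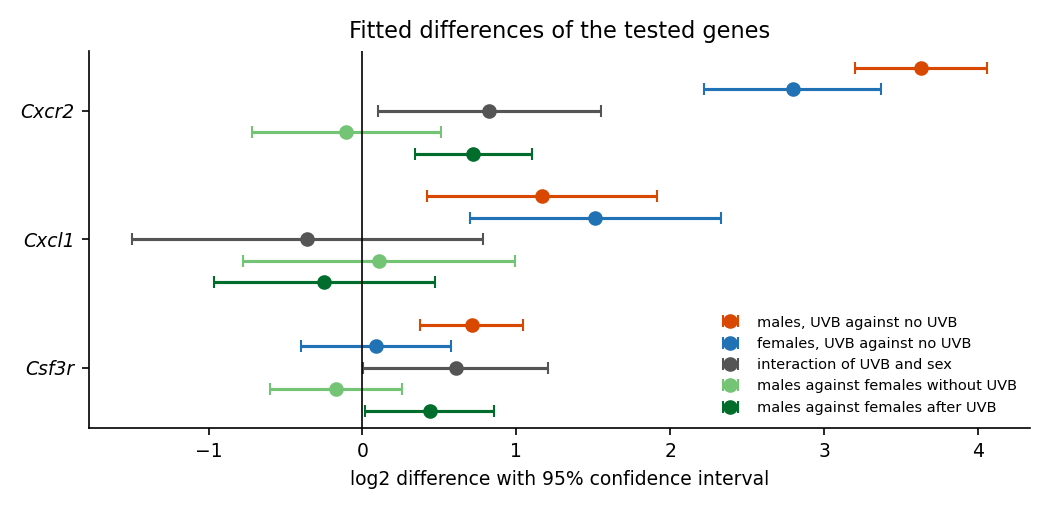
Fitted log2 differences with 95% confidence intervals for the 3 tested genes, from edgeR, for UVB against no UVB in each sex, for the interaction (male response minus female response) and for males minus females without and after UVB. The *Cxcr2* responses of 3.63 and 2.80 lie to the right of every other value. The intervals of *Csf3r* in females, of *Cxcl1* for the interaction and between sexes after UVB, and of all 3 genes between sexes without UVB include 0.

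Cytokines and regulators known to induce or restrain these chemokines were described from a list of 20 genes, of which 15 were tested. In males 9 rose and 3 fell, and in females 3 rose and none fell. Of all tested genes 29.0% rose and 30.5% fell in males, and 12.8% rose and 10.6% fell in females. The median log2 fold change of the list was 0.34 in males and 0.20 in females, beside -0.02 and 0.00 over all tested genes. Without unirradiated males 1 and 2, 8 of 16 tested rose and 2 fell in males, where 24.2% of all tested genes rose and 23.3% fell. *Il1b*, which encodes interleukin-1 beta, went from 3.14 ± 0.962 to 9.42 ± 1.5 CPM in males (log2 fold change 1.61, edgeR adjusted p = 0.000127) and from 3.06 ± 0.811 to 6.18 ± 1.64 CPM in females (1.03, edgeR adjusted p = 0.0142). *Il1rn*, the interleukin-1 receptor antagonist, rose by 1.45 and 1.17 on the log2 scale. Both were upregulated in both sexes.

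*Tnfrsf1a*, a TNF receptor, rose in males (log2 fold change 0.34) and was at 0.21 in females (edgeR adjusted p = 0.172), while *Il17rc*, an interleukin-17 receptor chain, rose by 0.49 in males and 0.36 in females. The NF-kB feedback inhibitors *Nfkbia* and *Tnfaip3* fell in males (-1.11 and -1.19), and the size of the fall rested on unirradiated males 1 and 2, which had 68.4 and 74.4 CPM of *Tnfaip3* against 17.8 to 34.9 CPM in the other 14 mice. Without them the log2 fold changes were -0.40 (edgeR adjusted p = 0.00741) and -0.27 (edgeR adjusted p = 0.0766). In females these genes were at -0.16 and -0.09. *Il6*, *Csf2*, *Il17a*, *Il17c* and *Il17f* did not pass the filter with all mice. In males *Il6* was counted 1 to 4 times in the controls, near the floor, and 5 to 18 times in irradiated mice, and *Il17a* had no counts in 12 of 16 mice. Without unirradiated males 1 and 2, *Il6* passed the filter and rose by 1.71 in males (edgeR adjusted p = 0.0384). In that fit the male calls of *Tnf*, *Il17ra* and *Zfp36* were lost (edgeR adjusted p = 0.247, 0.161 and 0.882).

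Of 9 other genes of CXC chemokines and of chemokine receptors, typical and atypical, 5 were tested. In males 1 rose and 3 fell, beside 29.0% and 30.5% of all tested genes, and in females none passed edgeR's test. *Ackr2* and *Ackr1*, decoy receptors that bind chemokines without classical signalling, fell in males by 0.66 and 0.32 on the log2 scale, and so did *Cxcr4*, the receptor of *Cxcl12*, by 0.72. *Cxcl12* rose by 0.18 in males, and *Pf4*, a platelet chemokine, was at -0.08 (edgeR adjusted p = 0.496). Without unirradiated males 1 and 2, 6 were tested in males, none rose and 2 fell, beside 24.2% and 23.3% of all tested genes. In that fit *Cxcr4* was at -0.04 (edgeR adjusted p = 0.862) and *Cxcl12* at 0.17 (edgeR adjusted p = 0.212), so that of these calls those of *Ackr1* and *Ackr2* were kept. *Ppbp*, the gene of another platelet chemokine with the ELR motif, was untested and stood at 0.539 ± 0.0848 CPM in irradiated males against 0.259 ± 0.105 in unirradiated males. *Cxcr1* had no counts in 13 mice and *Cxcl15* in 16.

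Of 20 genes that act below these receptors or partner with Trem1, 19 were tested, 4 rose and 7 fell in males, and none rose and 4 fell in females, with medians of 0.00 and -0.11 (log2). These shares are near the 29.0% and 30.5% of all tested genes that rose and fell in males, and in females 12.8% of all tested genes rose and 10.6% fell. With unirradiated males 1 and 2 left out, 2 rose and 3 fell in males, where 24.2% and 23.3% of all tested genes did. *Stat3*, which transmits the signal of Csf3r, went from 184 ± 6.37 to 252 ± 10.2 CPM in males (log2 fold change 0.48, edgeR adjusted p = 5.19e-05) and from 201 ± 8.96 to 206 ± 14.5 CPM in females (0.04, edgeR adjusted p = 0.762). *Jak2*, a kinase used by cytokine receptors, rose by 0.14 in males, a call that was lost without those controls (edgeR adjusted p = 0.164), and was at -0.11 in females. *Gnai2*, the G protein subunit that couples chemokine receptors, fell by 0.17 in males. *Grk2* and *Grk6*, kinases that desensitize such receptors, were at 0.02 and 0.00 in males, and *Tyrobp*, the adaptor of Trem1, was at 0.14 (edgeR adjusted p = 0.263). None of these genes passed the fold threshold in either sex.

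Among 14 other genes of neutrophil attraction, 13 were tested, 3 rose and 4 fell in males, and none rose and 2 fell in females, so that the male counts were near the shares of all tested genes (29.0% and 30.5%, and 12.8% and 10.6% in females). With unirradiated males 1 and 2 left out, 2 rose and 3 fell in males, beside 24.2% and 23.3% of all tested genes. *Itgb2*, the integrin chain that leukocytes use to adhere, fell by 0.44 in males and 0.39 in females, and *Alox5*, which starts leukotriene synthesis, fell by 0.40 and 0.57 on the log2 scale, and the male call was lost without those controls. *Ptafr*, the receptor of platelet-activating factor, fell by 0.51 in males. *Icam1*, *Lta4h* and *Alox5ap* did not pass edgeR's test in either sex (adjusted p from 0.122 to 0.870). *Ltb4r1*, the receptor of leukotriene B4, rose in males from 9.0 ± 0.288 to 17.7 ± 0.553 CPM (log2 fold change 0.998, edgeR adjusted p = 2.54e-06) and was at 0.25 in females (edgeR adjusted p = 0.291).

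The rise of *Cxcr2* was set beside 22 neutrophil markers. In males 15 were tested, 8 rose and 3 fell, and in females 13 were tested, 6 rose and 2 fell, with median log2 fold changes of 0.47 and 0.52. Of all tested genes 29.0% rose and 30.5% fell in males, and 12.8% and 10.6% in females. When unirradiated males 1 and 2 were left out, 16 were tested in males, 10 rose and 5 fell, beside 24.2% and 23.3% of all tested genes, and the median was 1.38. The defining marker *Ly6g* had 0 counts in 15 of 16 mice, including all 8 irradiated mice. The study counted Ly6G-positive neutrophils in irradiated skin by flow cytometry on day 3, so that absence of the cells was not read from these counts. *Stfa2*, a stefin, rose by 7.99 and 5.57 (log2) in males and females, *S100a9* by 4.55 and 2.29, and *Lcn2*, lipocalin 2, by 1.78 and 1.46. These genes are also made by inflamed keratinocytes. The myeloid lectin genes *Clec4e* and *Clec4d* of the same list, singled out after their values were seen, rose by 2.99 and 2.59 in males and by 1.90 and 1.49 in females. *Wfdc21* rose by 1.09 in females and was at 0.22 in males (edgeR adjusted p = 0.396), and *S100a8* rose by 3.67 in males and was at 0.17 in females (edgeR adjusted p = 0.812). Irradiated male 2 had 59.5 CPM of *S100a8* and 79.9 of *S100a9*, against 12.9 to 17.2 and 23.7 to 27.9 CPM in the other irradiated males, and without it the male log2 fold changes were 2.93 and 3.98 (edgeR adjusted p = 1.18e-05 and 7.09e-08).

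*Mmp9*, a granule protease, moved the other way and fell by 1.57 in males and 1.06 in females. The other markers of the list that fell, also named after their values were seen, were *Il1r2* and *G0s2*. *Il1r2* went from 105 ± 18.4 to 59.9 ± 10.3 CPM in males (-0.79, edgeR adjusted p = 0.00212) and fell by 0.40 in females (0.0953). *G0s2* fell by 0.97 in males (edgeR adjusted p = 0.0089) and was at -0.24 in females (0.538). Both male calls were kept without unirradiated males 1 and 2. *Mmp8*, neutrophil collagenase, was at 1.96 ± 0.359 CPM in irradiated males and 0.297 ± 0.0854 in unirradiated males (log2 fold change 2.70, edgeR adjusted p = 1.41e-05) and did not pass the filter in females. The summed level of the 22 markers was 272 to 441 CPM in irradiated males against 210 to 286 CPM in unirradiated males, and 225 to 289 against 186 to 251 CPM in females, so that the groups overlapped in both sexes.

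Some keratinocyte markers also rose. Of 7 tested, 5 rose in males and 3 in females (29.0% and 12.8% of all tested genes rose), none fell, and the median log2 fold change was 0.94 and 0.23. *Krt1*, a keratin of differentiating epidermis, rose by 3.13 in males and 1.99 in females. The summed level of the list was 22859 to 32969 CPM in irradiated males against 9540 to 14819 CPM in unirradiated males, and 13298 to 17153 against 8243 to 12304 CPM in females, with no overlap in either sex. Of 14 monocyte and macrophage markers, 3 rose and 6 fell in males and none rose and 2 fell in females, where 30.5% and 10.6% of all tested genes fell, and the summed level was 1825 to 2354 CPM against 2153 to 2813 CPM in males. In males, leaving out unirradiated males 1 and 2, 5 keratinocyte markers rose, and 1 monocyte and macrophage marker rose and 5 fell, beside 24.2% and 23.3% of all tested genes. The part of any of these cell types in the rise of *Cxcr2* was not tested.

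**Figure D5:**
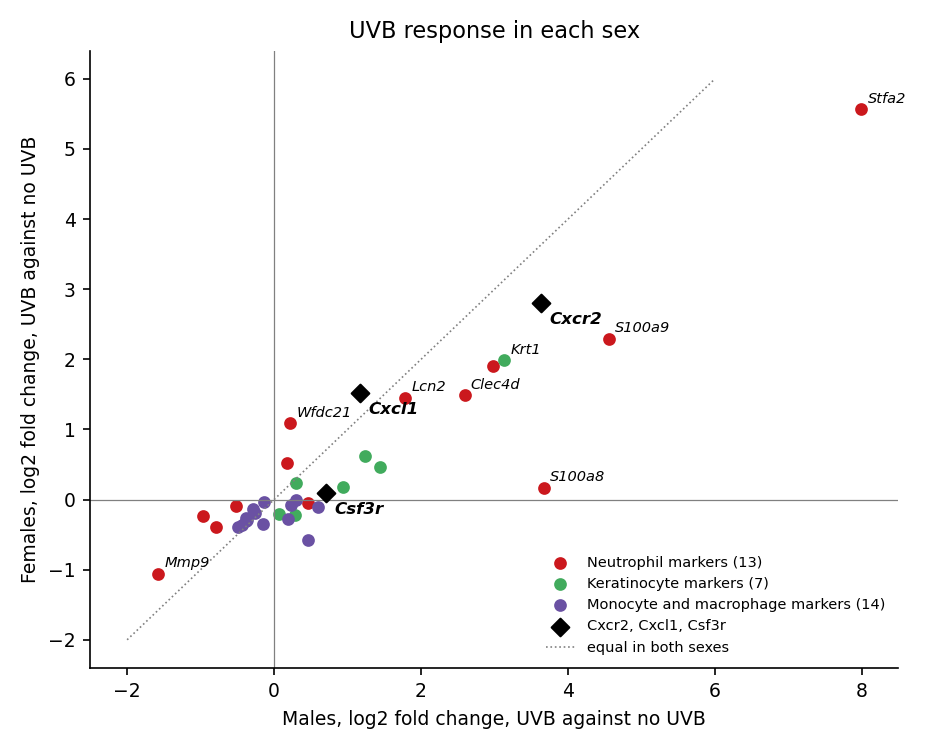
Log2 fold change after UVB in males (horizontal) and females (vertical) for *Cxcr2*, *Cxcl1* and *Csf3r* (black diamonds) and for the neutrophil, keratinocyte, and monocyte and macrophage markers tested in both sexes; the dotted line marks equal change. *Cxcr2* (3.63, 2.80) lies among the neutrophil and keratinocyte markers that rose in both sexes, near *Krt1* (3.13, 1.99) and *Clec4e* (2.99, 1.90), and *Csf3r* (0.71, 0.09) lies close to 0 in females.

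The genes whose log2 CPM over the 16 mice was most like that of *Cxcr2*, among 17405 others, were *Slc5a8* (Pearson r = 0.984), *Il36g* (0.983) and *Klk11* (0.982). *Slc5a8* encodes a monocarboxylate transporter, *Il36g* an interleukin-1 family cytokine of epidermis, and *Klk11* a kallikrein protease of epithelia. *Il36g* was at 17.8 ± 5.43 and 141 ± 21.9 CPM in unirradiated and irradiated males and at 18.6 ± 2.43 and 94.8 ± 14.2 CPM in females. All points share the step between irradiated and control mice, and over deviations from the 4 group means the r values fell to 0.526, 0.453 and 0.509.

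For *Cxcl1* the most similar genes were *Tnfrsf9* (r = 0.877), *4632411P08Rik* (0.870) and *Scyl2* (0.859). For *Csf3r* those given here were *Arpc4*, a subunit of the actin-nucleating Arp2/3 complex (r = 0.870), and *Wfdc17* (0.857). Over deviations from the group means these 5 values were between 0.654 and 0.808. These likenesses are descriptions with no test.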

How the data were processed

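The authors sequenced poly(A) RNA from the whole dorsal skin of 16 mice with a directional library kit, aligned it with STAR to GRCm39 and deposited whole-number counts per gene without normalization. The version of STAR is not given in the sources used here. Of the 3 counts for each gene, the 1 for the kit's strand was used. Genes were named from GENCODE M39. The 8 genes and all lists, tests and alternatives were chosen with earlier results of these data known. Nothing shows whether the mice of a group were littermates, and p-values measure the spread between the mice. No libraries of a group were duplicates (lowest chi-square per degree of freedom 10.4).

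Counts were scaled by TMM, filtered by filterByExpr and fitted with edgeR 4.0.16 (robust quasi-likelihood test) in R 4.3.3 with limma 3.58.1, within each sex for UVB and over all 16 mice for sex and interaction, with no covariate. The script was tested on simulated data. DESeq2 1.42.0 and apeglm 1.24.0 served as alternatives, with other scalings, other filters, counts without regard to strand, an adjusted p under 0.05, the replicate number as a block, a single fit of all mice, each mouse left out and, chosen after seeing the data, unirradiated males 1 and 2 left out together, irradiated male 2 left out for *S100a8* and *S100a9*, and the fit of every gene with each mouse left out. All 8 genes were named, with up to 6 genes from each list by call and mean CPM, list genes called for the interaction, *Ly6g*, *S100a8* and *S100a9*, and the 3 genes most correlated with each of the 8 genes that averaged at least 10 counts (log2 CPM, prior count 2), of which 1 is not reported here. Other lists, given in the closing part, check the tissue.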

Additional observations from a re-analysis of the deposited data

Results flagged for a closer look

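None of the 8 genes was marked for a closer look: in the 21 groups of 4 mice with a value over the floor, no mouse stood apart by Dixon's criterion, and no interaction of UVB and sex was called.

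Among the 127 tested genes of the lists and those most like the 8, the responses of the sexes differed in edgeR's interaction test (adjusted p under 0.1) for 20 (15.7%), where 2.75% of all tested genes had a larger and 4.25% a smaller log2 change in males. The values are male minus female log2 fold changes. Of the genes around the axis they were 0.76 for *Il17ra*, 0.70 for *Fgr*, 0.23 for *Jak2*, 0.42 for *Stat3*, 0.74 for *Ltb4r1* and -0.50 for *Ackr2*. Of the neutrophil markers they were 3.47 for *S100a8*, 2.24 for *S100a9*, 1.69 for *Mmp8* and -0.89 for *Wfdc21*. Without irradiated male 2, which stood above the other irradiated males in both *S100a8* and *S100a9*, their differences were 2.73 and 1.66 (edgeR adjusted p = 0.0256 and 0.0220). Of the genes most like the 8 they were 0.81 for *Slc5a8* and 0.52 for *Klk11*. Of the other cell type markers they were 0.95 for *Krt14*, -1.25 for *Col1a1*, -1.23 for *Col1a2*, -0.59 for *Lum*, -0.66 for *Acta1*, -0.94 for *Ckm*, -0.59 for *Tnnt3* and -0.79 for *Mylpf*.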

How the results depend on the processing

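The upregulation of *Cxcr2* in each sex and its higher level in irradiated males kept direction and call in every alternative that tested it. The number of the 8 genes called in males (2) was 4 with every gene of at least 1 count, 1 with apeglm shrinkage, 0 with at least 10 counts in every mouse, where *Cxcr2* and *Cxcl1* were not tested, and 1 to 2 with a mouse left out. In females (2) it was 0 with at least 10 counts in every mouse and 2 with any mouse left out. After UVB, the number called between sexes (1) was 2 with DESeq2's Wald test, which added *Csf3r*, 0 with at least 10 counts in every mouse and 1 to 2 with a mouse left out. It was 0 for the interaction and between sexes without UVB in every alternative. The interaction value with a mouse left out ranged from 0.54 to 0.99 for *Cxcr2*, 0.43 to 0.79 for *Csf3r* and -0.76 to -0.12 for *Cxcl1*. Without unirradiated males 1 and 2 it was 0.675 for *Cxcr2* and -0.088 for *Cxcl1*. The lowest interaction value of *Csf3r* in the other alternatives was 0.398. Sex differences without UVB, all near 0, changed sign, to 0.044 for *Cxcr2*, -0.16 for *Cxcl1* and 0.037 for *Csf3r* without unirradiated males 1 and 2, and with a mouse left out they ranged from -0.27 to 0.17, -0.13 to 0.51 and -0.30 to 0.005. With a mouse left out, *Csf3r* in females ranged from -0.11 to 0.28. Same-numbered mice did not deviate together as a set (r from -0.0732 to 0.0216 in males and -0.115 to 0.217 in females), and the main fits used no pairing. Correlations of so few mice cannot settle whether some shared a litter, cage or day. With the replicate number as a block the counts of calls were unchanged at 2, 2, 0, 0 and 1. Depth limits *Cxcl3*, *Cxcl5* and *Csf3*, which had at most 7, 4 and 3 counts in a mouse, and at 4 mice a group the interaction intervals of the tested genes span over 1 log2 unit.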

Other observations

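The remaining cell type markers were measured in the same libraries as the 8 genes. In males 5 of 6 fibroblast markers and 5 of 6 skeletal muscle markers fell after UVB (30.5% of all tested genes fell), and none rose, while in females 1 fibroblast marker rose, 1 fell and no muscle marker passed edgeR's test (10.6% of all tested genes fell). Without unirradiated males 1 and 2, 3 fibroblast and 5 muscle markers fell in males, beside 23.3% of all tested genes. The summed level of the fibroblast list was 79065 to 86268 CPM in unirradiated males, 28385 to 39292 in irradiated males, 19205 to 20539 in unirradiated females and 12113 to 21853 in irradiated females, so that unirradiated males stood far above the rest. Most of this sum is collagen (*Col1a1*, *Col1a2* and *Col3a1*). Among the other members, *Lum* was higher in unirradiated males (716 ± 94.7 against 425 ± 48.9 CPM, log2 difference 0.75, edgeR adjusted p = 0.000912), while *Pdgfra* (115 ± 5.45 CPM in unirradiated males and 140 ± 25.9 in unirradiated females) and *Dcn* (2926 ± 351 and 2570 ± 288) did not pass edgeR's test between the sexes without UVB. Of 6 adipocyte markers 3 fell in males and none passed in females, and none of 6 endothelial markers passed in either sex. Without unirradiated males 1 and 2, 1 adipocyte marker fell in males, and the endothelial count stayed at 0. Of 9 mast cell and eosinophil markers 7 were tested, of which 2 rose in males and 4 in females, where 29.0% and 12.8% of all tested genes rose, and 2 rose in males without those controls. The part of these differences in the values of the 8 genes was not tested.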
